A study of Rattus norvegicus with 12 samples.

Results

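The genes described here are the nuclear-encoded subunits of respiratory chain complexes II, III and IV, of ATP synthase (complex V), and cytochrome c. They were chosen by name from a list of 42 genes. Of these, 36 names occurred in the deposited count table, on 38 of its 30560 gene rows, because Uqcrb and Atp5mc1 each stood on 2 rows. The rows fell into 4 of complex II, 9 of complex III, 1 of cytochrome c, 10 of complex IV and 14 of complex V, and all 38 passed the filter on low counts. Uqcr11, Cox7a2, Cox8a, Cox8b, Atp5f1c and Atp5f1e were not analysed here.

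Total RNA depleted of ribosomal RNA was sequenced from 12 mitochondrial preparations of hindlimb muscle (the design text names gastrocnemius) of 1 male wild-type Wistar Kyoto rat aged 14 weeks, in 4 groups of 3. The mitoplast_RNase group held mitoplasts, mitochondria without their outer membrane, made from organelles pulled down on magnetic beads that carry an antibody. The IP_RNase_ProK libraries came from bead-captured mitochondria treated with proteinase K, which digests exposed protein, and the IP_RNase group held bead-captured mitochondria without that step. The crude_RNase libraries came from the pellet of differential centrifugation, with no bead step. All 4 groups had received RNase A, which degrades accessible single-stranded RNA, so no untreated preparation is among them. All libraries came from 1 pooled homogenate, and no label says that replicates were independent isolations, so each error and p-value below covers library-to-library spread alone, which may be technical. Crude_RNase libraries were made from 6.3 ng of RNA and the others from 40 ng, so isolation method and RNA input cannot be told apart.

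Oxidative phosphorylation passes electrons from succinate through complex II, and from complex I, to ubiquinone, then through complex III and cytochrome c to complex IV, where oxygen is reduced. Complexes III and IV pump protons, and ATP synthase uses the gradient to make ATP. Complex II is encoded wholly in the nucleus, while complexes III, IV and V also hold subunits made inside the mitochondrion from mitochondrial DNA. The mRNAs of the nuclear subunits are translated on cytosolic ribosomes, some of them at the organelle's outer surface, and the proteins are imported. Skeletal muscle is rich in these complexes and uses muscle-type isoforms of some complex IV subunits.

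Total counts were 3754889 to 4210404 per mitoplast_RNase library, 3705192 to 4563254 per IP_RNase_ProK library, 3325430 to 3911630 per IP_RNase library and 6583452 to 7123045 per crude_RNase library. The median member row had 57 to 65.5 counts in mitoplast_RNase, 59 to 72.5 in IP_RNase_ProK, 47.5 to 57 in IP_RNase and 104.5 to 114.5 in crude_RNase. The median of 1117 olfactory receptor genes, which skeletal muscle does not normally transcribe, had 38 to 46, 40 to 49, 37 to 44 and 30 to 34 counts in the same libraries. The median non-mitochondrial gene row had 79 to 89, 79 to 97, 70 to 76 and 63 to 78. In mitoplast_RNase several members lay near or below the olfactory level, such as Uqcrh at 30 to 40 counts, Atp5pf at 27 to 40 and Cox6a2 at 31 to 32. Uqcrfs1, at 44 to 48, and Cox6c, at 38 to 52, also lay near it. Others lay well above it, such as Sdha at 189 to 223. In IP_RNase, Uqcrfs1 at 35 to 47 and Cox6c at 32 to 45 lay near that level too. How far that level limits the fold changes below was not tested. Gene lengths were not used, so levels are compared between libraries and not between genes. The 37 mitochondrial gene rows took 2.52% to 3.94% of counts in mitoplast_RNase, 2.06% to 3.36% in IP_RNase_ProK, 3.33% to 10.9% in IP_RNase and 41.2% to 54.0% in crude_RNase. IP_RNase 3, at 10.9%, stood apart from the other bead-captured libraries.

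Summed, the members took a smaller share of the non-mitochondrial counts after bead capture, a difference given here without a test. They took 0.0744% ± 0.00192 of counts outside the mitochondrial chromosome in mitoplast_RNase, 0.0746% ± 0.00254 in IP_RNase_ProK and 0.0759% ± 0.00137 in IP_RNase, against 0.149% ± 0.00544 in crude_RNase (SD, n = 3 each). The 9 bead-captured libraries lay between 0.0723% and 0.0774%, and the crude_RNase libraries between 0.143% and 0.154%, without overlap. As a share of all counts, mitochondrial ones included, the sums overlapped, at 0.0719% ± 0.00155, 0.0725% ± 0.00200 and 0.0710% ± 0.00218 in mitoplast_RNase, IP_RNase_ProK and IP_RNase, against 0.0750% ± 0.00791 in crude_RNase. The share in crude_RNase 1 was 0.0842%, and the other 2 crude_RNase libraries had 0.0701% and 0.0708%. A lower share can come from less of these mRNAs or from more of other RNA, and in bulk libraries fewer source cells or organelles and less RNA in each cannot be told apart.

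Gene by gene, most members fell in every bead-captured group relative to crude mitochondria, and none rose. Counts per 1000000 (CPM) were scaled by the trimmed mean of M-values (TMM), and edgeR's quasi-likelihood test was run over all 26483 genes kept, with Benjamini-Hochberg adjustment and a threshold of 0.05. In mitoplast_RNase, 29 of 38 members fell, with a median log2 fold change of -0.94, where 4.54% of all genes tested were called lower and their median was 0.0047. In IP_RNase_ProK, 29 of 38 fell, with a median of -0.94, against 5.03% of all genes and a median of 0.0034. In IP_RNase, 28 of 38 fell, with a median of -0.95, against 5.11% of all genes and a median of 0.0063. The count of members called higher by edgeR was 0 in each comparison, where 1.00%, 1.45% and 1.26% of all genes were. At an unadjusted p under 0.05, 32, 31 and 31 members differed in those 3 comparisons, as did 4417, 4709 and 4746 of all 26483 genes tested. DESeq2 called 28, 28 and 27 members lower and 0 higher. Over all genes it called 902, 947 and 989 lower and 105, 165 and 139 higher. The comparisons share the crude_RNase libraries and are not independent of each other. In all 3 of them 28 rows were called lower, Atp5mg was called in 2, and 9 rows were called in none.

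These directions hold relative to the bulk of genes, and they depend on the scaling between libraries. Scaled on total counts instead, the median of all genes tested was 1.07 in mitoplast_RNase, 1.08 in IP_RNase_ProK and 1.03 in IP_RNase, relative to crude_RNase, and the members' medians were 0.13, 0.14 and 0.07. Under that scaling 8 members were called lower and 14 higher in mitoplast_RNase, 9 and 15 in IP_RNase_ProK, and 8 and 15 in IP_RNase. Of the members called lower under TMM, it called 6, 7 and 6 higher in the same order. Of all 26483 genes tested, it called 179 lower and 25223 higher in mitoplast_RNase, 186 and 25222 in IP_RNase_ProK, and 189 and 25084 in IP_RNase. Of the 9 rows not called under TMM, 8 were called higher by library size in all 3 comparisons, Cox7b being the exception. Scaled on olfactory receptor genes, 31, 29 and 31 were called lower and 0 higher. Over all genes, the IP_RNase comparison gave 333 higher and 1352 lower calls under TMM, 25084 and 189 under library size, 58 and 4475 under olfactory receptor scaling, and 139 and 989 with DESeq2. Relative to the median of all genes the members' median was -0.96 in IP_RNase under each of these 4 scalings. That sameness is fixed by construction, since a scaling shifts all genes of a library alike, and it adds no support. Called lower under all 4 scalings in all 3 comparisons were 7 members: Atp5f1a, Atp5f1b and Atp5pb of ATP synthase, Cox4i1, Cox5b and Cox6c of complex IV, and Uqcrfs1 of complex III. The 4 scalings use the same counts, so these are not 4 separate tests.

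**Figure D1:**
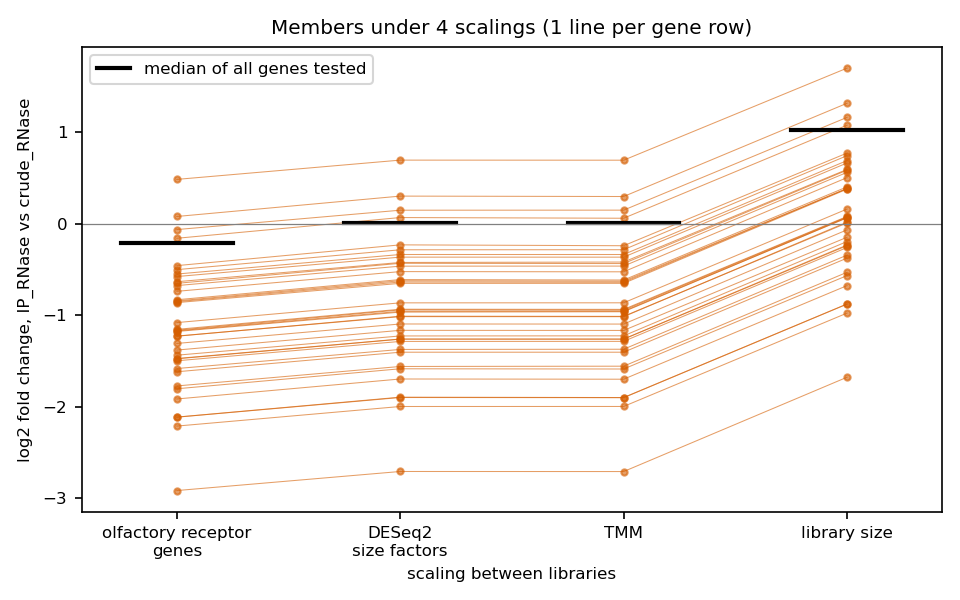
Log2 fold change of each of the 38 member rows in IP_RNase against crude_RNase (y axis) under 4 scalings between libraries (x axis), with 1 line per row and a black bar at the median of all genes tested. By construction the members shift together with the bar, which lies at -0.21 under olfactory receptor scaling, 0.01 under DESeq2 and TMM and 1.03 under library size.

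Complex II, succinate dehydrogenase, had the smallest median change of the 4 complexes, at -0.56 in mitoplast_RNase, -0.58 in IP_RNase_ProK and -0.48 in IP_RNase relative to crude_RNase, a difference between complexes that was not tested. Sdha, the flavoprotein that oxidises succinate, had 39.4, 43.7 and 41.9 CPM in mitoplast_RNase, 45.3, 42.3 and 40.5 CPM in IP_RNase_ProK, 45.1, 42.6 and 46.1 CPM in IP_RNase, against 67.1, 79.0 and 62.6 CPM in crude_RNase. The crude_RNase libraries were above the 9 bead-captured ones, with no overlap. Its log2 fold change was -0.74 ± 0.0922 in mitoplast_RNase, -0.70 ± 0.0915 in IP_RNase_ProK and -0.64 ± 0.0931 in IP_RNase (SE; edgeR adjusted p = 1.07e-08, 3.38e-08 and 5.56e-07). Scaled on library size, Sdha was called higher in each comparison, as were most genes tested. Sdhb, the iron-sulfur subunit, was at -0.39, -0.47 and -0.43 in the same order, and Sdhd, a membrane anchor that helps bind ubiquinone, at -0.87, -0.75 and -0.52, both also positive by library size. That scaling called Sdhb higher in each comparison, and Sdhd in IP_RNase_ProK and IP_RNase. The TMM call of Sdhb ended without mitoplast_RNase 2 or crude_RNase 3 in mitoplast_RNase (edgeR adjusted p = 0.143 and 0.162) and without IP_RNase 1 or crude_RNase 3 in IP_RNase (0.0518 and 0.0868). That of Sdhd in IP_RNase ended without IP_RNase 1, IP_RNase 3 or crude_RNase 3 (edgeR adjusted p = 0.0669, 0.126 and 0.0734). Sdhc, the other anchor, had 22.7, 25.3 and 28.6 CPM in mitoplast_RNase, 23.4, 25.4 and 24.9 CPM in IP_RNase_ProK, 25.6, 24.3 and 21.9 CPM in IP_RNase, against 25.7, 24.3 and 38.0 CPM in crude_RNase. These ranges overlapped, crude_RNase 3 being the highest library, and the gene did not pass at -0.19 ± 0.134 in mitoplast_RNase, -0.25 ± 0.134 in IP_RNase_ProK and -0.28 ± 0.138 in IP_RNase (edgeR adjusted p = 0.520, 0.338 and 0.266). By library size Sdhc was called higher, at 0.88, 0.84 and 0.75, as were most genes tested.

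Complex III, ubiquinol-cytochrome c reductase, fell in 8 of its 9 rows in each comparison. Uqcrfs1, the Rieske iron-sulfur protein, had 9.17, 9.01 and 10.5 CPM in mitoplast_RNase, 7.31, 13.3 and 10.7 CPM in IP_RNase_ProK, 8.14, 11.6 and 8.45 CPM in IP_RNase, against 36.4, 37.9 and 30.5 CPM in crude_RNase. All 3 crude_RNase libraries were well above the other 9. The bead-captured counts, 44 to 48, 41 to 60 and 35 to 47 in the same order, lay near those of the median olfactory receptor gene. The log2 fold change was -1.87 ± 0.163 in mitoplast_RNase, -1.77 ± 0.160 in IP_RNase_ProK and -1.90 ± 0.168 in IP_RNase (edgeR adjusted p = 9.49e-14, 3.79e-13 and 1.90e-13), and stayed called lower under library size, at -0.81, -0.69 and -0.88. The small subunits Uqcrh, Uqcrq and Uqcr10 were at -1.56, -1.34 and -1.37, at -1.27, -1.53 and -1.10 and at -1.26, -1.15 and -1.26 in mitoplast_RNase, IP_RNase_ProK and IP_RNase. Uqcrh is known as the hinge protein at the cytochrome c1 site. Cyc1, cytochrome c1, was at -0.92, -0.89 and -0.94, and the core proteins Uqcrc1 and Uqcrc2 at -0.66, -0.66 and -0.61 and -0.75, -0.84 and -0.65, all of which turned positive by library size. That scaling called Uqcrc1 higher in each comparison, and Uqcrc2 in mitoplast_RNase and IP_RNase. Uqcrb, which lies next to a ubiquinone site, was at -0.81, -0.97 and -0.96 on its main row (ENSRNOG00000024967), likewise positive by library size. Its other row (ENSRNOG00000032204) had 13, 4 and 6 counts in mitoplast_RNase, 9, 5 and 11 counts in IP_RNase_ProK, 7, 10 and 13 counts in IP_RNase, against 4, 6 and 7 counts in crude_RNase. These few reads overlapped between groups. The row did not pass under TMM and was called higher by library size, as were most genes tested. Its TMM log2 fold changes of 0.14 ± 0.50 in mitoplast_RNase, 0.22 ± 0.492 in IP_RNase_ProK and 0.70 ± 0.473 in IP_RNase have the widest errors of all members. Reads of rows with the same name may be shared between near-identical copies, so their split is uncertain.

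Cycs, the small soluble carrier cytochrome c that also acts in apoptosis, had 11.5, 9.40 and 10.9 CPM in mitoplast_RNase, 7.84, 11.3 and 12.8 CPM in IP_RNase_ProK, 13.5, 11.4 and 16.7 CPM in IP_RNase, against 25.5, 28.0 and 27.7 CPM in crude_RNase. The crude_RNase libraries were again highest without overlap, and among the bead-captured libraries IP_RNase 3 was highest. The log2 fold change against crude_RNase was -1.35 ± 0.163 in mitoplast_RNase, -1.36 ± 0.163 in IP_RNase_ProK and -0.96 ± 0.159 in IP_RNase (edgeR adjusted p = 4.33e-09, 3.16e-09 and 1.02e-05), and in IP_RNase it was positive by library size, at 0.066.

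Complex IV, cytochrome c oxidase, held 6 rows that fell and 4 that did not pass in each comparison. Cox6c, a small subunit of the inner membrane, had 10.8, 7.44 and 10.3 CPM in mitoplast_RNase, 6.42, 8.63 and 7.24 CPM in IP_RNase_ProK, 8.6, 7.93 and 10.3 CPM in IP_RNase, against 35.3, 38.7 and 33.5 CPM in crude_RNase. Every crude_RNase library was at least 33.5 CPM and every bead-captured one at most 10.8 CPM. Its bead-captured counts, 38 to 52, 34 to 39 and 32 to 45 in the same order, lay near those of the median olfactory receptor gene. Its log2 fold change was -1.92 ± 0.154 in mitoplast_RNase, -2.28 ± 0.161 in IP_RNase_ProK and -2.00 ± 0.161 in IP_RNase (edgeR adjusted p = 5.69e-15, 3.66e-17 and 5.71e-15). Cox4i1, a regulatory subunit that binds adenine nucleotides, was at -1.78, -1.71 and -1.70, and Cox5b, which binds zinc, at -1.68, -1.54 and -1.59. These 3 genes stayed called lower by library size. Cox5a, Cox6b1 and Cox7c were at -0.97, -1.13 and -1.17, at -1.14, -0.91 and -1.01 and at -1.08, -1.08 and -0.86, also past the threshold, but near 0 and not called by library size. Cox7b had 6 to 13 counts per library and did not pass, at -0.65, -0.85 and -0.42.

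The isoform genes of complex IV did not pass in any comparison with crude_RNase under TMM, and all 3 were called higher in each by library size. So were most genes, at 25223, 25222 and 25084 of 26483 in mitoplast_RNase, IP_RNase_ProK and IP_RNase, where the medians of all genes were 1.07, 1.08 and 1.03. By that scaling Cox7a1 was at 1.33, 1.37 and 1.08, Cox6a2 at 0.46, 0.96 and 0.69, and Cox6a1 at 0.67, 0.76 and 0.77 in mitoplast_RNase, IP_RNase_ProK and IP_RNase. Their TMM-scaled values follow. Cox7a1, the isoform of heart and skeletal muscle, had 19.6, 19.8 and 18.3 CPM in mitoplast_RNase, 18.2, 17.9 and 22.8 CPM in IP_RNase_ProK, 17.7, 17.1 and 15.3 CPM in IP_RNase, against 18.8, 13.6 and 15.1 CPM in crude_RNase. Each bead-captured group overlapped crude_RNase, while the IP_RNase libraries lay below those of the other bead-captured groups. The log2 fold change of 0.27 ± 0.153 in mitoplast_RNase, 0.29 ± 0.152 in IP_RNase_ProK and 0.062 ± 0.160 in IP_RNase against crude_RNase did not pass (edgeR adjusted p = 0.390, 0.304 and 0.892). Cox6a2, the muscle form of subunit 6A, had 6.46, 6.27 and 6.99 CPM in mitoplast_RNase, 9.63, 9.52 and 8.31 CPM in IP_RNase_ProK, 7.90, 8.67 and 7.31 CPM in IP_RNase, against 8.50, 10.7 and 11.2 CPM in crude_RNase. The mitoplast_RNase libraries were lowest, below all crude_RNase ones, while IP_RNase_ProK and IP_RNase overlapped crude_RNase. Its log2 fold change of -0.61 ± 0.217 in mitoplast_RNase, -0.13 ± 0.203 in IP_RNase_ProK and -0.34 ± 0.214 in IP_RNase did not pass (edgeR adjusted p = 0.0930, 0.809 and 0.441). Cox6a1, the form of most other tissues, had 9.17, 9.20 and 11.4 CPM in mitoplast_RNase, 12.8, 9.52 and 8.73 CPM in IP_RNase_ProK, 9.76, 11.4 and 11.9 CPM in IP_RNase, against 15.9, 12.0 and 10.6 CPM in crude_RNase, overlapping throughout. The log2 ratio of Cox6a2 to Cox6a1 counts, which needs no scaling between libraries, was -0.40 ± 0.242 over the 9 bead-captured libraries and -0.33 ± 0.498 over the 3 crude_RNase libraries (SD), a difference of -0.069 (two-sided exact permutation p = 0.745, the smallest possible being 0.00909). The difference lay between -0.35 and 0.13 when single libraries were left out, being positive without crude_RNase 2 or crude_RNase 3. Cox6a2 had 31 to 54 counts in the bead-captured libraries and 38 to 40 in crude_RNase, and the median olfactory receptor gene 37 to 49 and 30 to 34, values not adjusted for length.

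ATP synthase held the member with the lowest fold change as well as members that did not pass under TMM, and its parts are given in turn. Atp5f1b (ENSRNOG00000002840), the catalytic beta subunit of the F1 head, had 24.0, 20.2 and 21.2 CPM in mitoplast_RNase, 21.9, 21.5 and 25.3 CPM in IP_RNase_ProK, 20.9, 23.3 and 26.5 CPM in IP_RNase, against 135, 172 and 157 CPM in crude_RNase. The bead-captured libraries stayed at or under 26.5 CPM and the crude_RNase ones at or over 135 CPM. Its log2 fold change was -2.83 ± 0.0993 in mitoplast_RNase, -2.75 ± 0.0981 in IP_RNase_ProK and -2.71 ± 0.10 in IP_RNase (edgeR adjusted p = 1.55e-30, 2.78e-30 and 1.96e-29), or 7.09-fold, 6.74-fold and 6.54-fold lower, and -1.74, -1.66 and -1.68 when scaled on library size. Atp5f1a, the alpha subunit of the same ring, was at -1.99, -1.95 and -1.90, and -0.91, -0.87 and -0.88 by library size. Atp5f1d, the delta subunit of the central stalk, fell less, at -0.51, -0.58 and -0.63, and was called higher by library size in each comparison.

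The peripheral stalk, which holds the F1 head still, fell in all 4 of its genes. Atp5pb (subunit b), Atp5pf (coupling factor 6), Atp5pd (subunit d) and Atp5po (the oligomycin sensitivity protein) were at -1.59, -1.64 and -1.40, at -1.46, -1.58 and -1.56, at -1.12, -1.25 and -1.29 and at -0.95, -0.75 and -0.94 in mitoplast_RNase, IP_RNase_ProK and IP_RNase. Atp5pb stayed called lower by library size in all 3 comparisons, and Atp5po turned positive, being called higher in IP_RNase_ProK. Of the small membrane subunits, Atp5me (subunit e) was at -1.18, -1.02 and -1.26 and Atp5mf (subunit f) at -0.96, -1.31 and -1.22. Atp5mg (subunit g) was at -0.51, -0.40 and -0.36, past the threshold in mitoplast_RNase and IP_RNase_ProK and not in IP_RNase (edgeR adjusted p = 0.00684, 0.0474 and 0.0901). Its call ended without mitoplast_RNase 3 or crude_RNase 2 in mitoplast_RNase (edgeR adjusted p = 0.0600 and 0.110). By library size it was called higher in all 3 comparisons, at 0.56, 0.69 and 0.67, as were most genes tested. In IP_RNase_ProK the call under TMM ended without IP_RNase_ProK 1 or 3 (0.265 and 0.154) and without crude_RNase 2 or 3 (0.303 and 0.0925), and with the replicate block (0.0512).

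The 3 genes of the c-ring, the rotor in the membrane, encode the same mature protein with different import sequences. Of their 4 rows only that of Atp5mc3 passed in any comparison with crude_RNase under TMM, and the other 3 were called higher in each by library size. Most genes tested were called higher by library size too, with medians of 1.07, 1.08 and 1.03 in mitoplast_RNase, IP_RNase_ProK and IP_RNase. By that scaling Atp5mc2 was at 0.68, 0.75 and 0.56 and the main row of Atp5mc1 at 1.24, 1.42 and 1.32 in mitoplast_RNase, IP_RNase_ProK and IP_RNase. Atp5mc3 had 23.5, 22.1 and 21.2 CPM in mitoplast_RNase, 16, 21.9 and 21.7 CPM in IP_RNase_ProK, 20.9, 22.8 and 18.3 CPM in IP_RNase, against 35.8, 45.4 and 44.7 CPM in crude_RNase. All crude_RNase libraries were above the rest, and the log2 fold change was -0.90 ± 0.125 in mitoplast_RNase, -1.08 ± 0.127 in IP_RNase_ProK and -1.02 ± 0.130 in IP_RNase (edgeR adjusted p = 1.54e-07, 1.90e-09 and 1.92e-08), slightly positive by library size. Atp5mc2 had 14.4, 13.9 and 12.2 CPM in mitoplast_RNase, 13.0, 14.6 and 14.7 CPM in IP_RNase_ProK, 11.6, 11.9 and 15.1 CPM in IP_RNase, against 15.4, 18.9 and 19.3 CPM in crude_RNase. The lowest crude_RNase library lay just above the highest bead-captured one, and the gene did not pass at -0.39 ± 0.161 in mitoplast_RNase, -0.34 ± 0.159 in IP_RNase_ProK and -0.46 ± 0.167 in IP_RNase (edgeR adjusted p = 0.172, 0.245 and 0.0905). Atp5mc1 had 9.79, 9.01 and 12.0 CPM in mitoplast_RNase, 12.3, 11.5 and 10.4 CPM in IP_RNase_ProK, 13.0, 9.41 and 11 CPM in IP_RNase, against 9.39, 9.61 and 8.10 CPM in crude_RNase on its main row (ENSRNOG00000069121). Its crude_RNase libraries were the low ones, although they overlapped the bead-captured range, and the log2 fold change of 0.17 ± 0.202 in mitoplast_RNase, 0.34 ± 0.197 in IP_RNase_ProK and 0.30 ± 0.203 in IP_RNase did not pass (edgeR adjusted p = 0.74, 0.386 and 0.479). On the other row of Atp5mc1 (ENSRNOG00000007235) there were 14, 19 and 8 counts in mitoplast_RNase, 10, 13 and 6 counts in IP_RNase_ProK, 10, 11 and 9 counts in IP_RNase, against 7, 9 and 9 counts in crude_RNase, which overlapped and did not pass. The difference between the 3 genes was not tested.

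**Figure D2:**
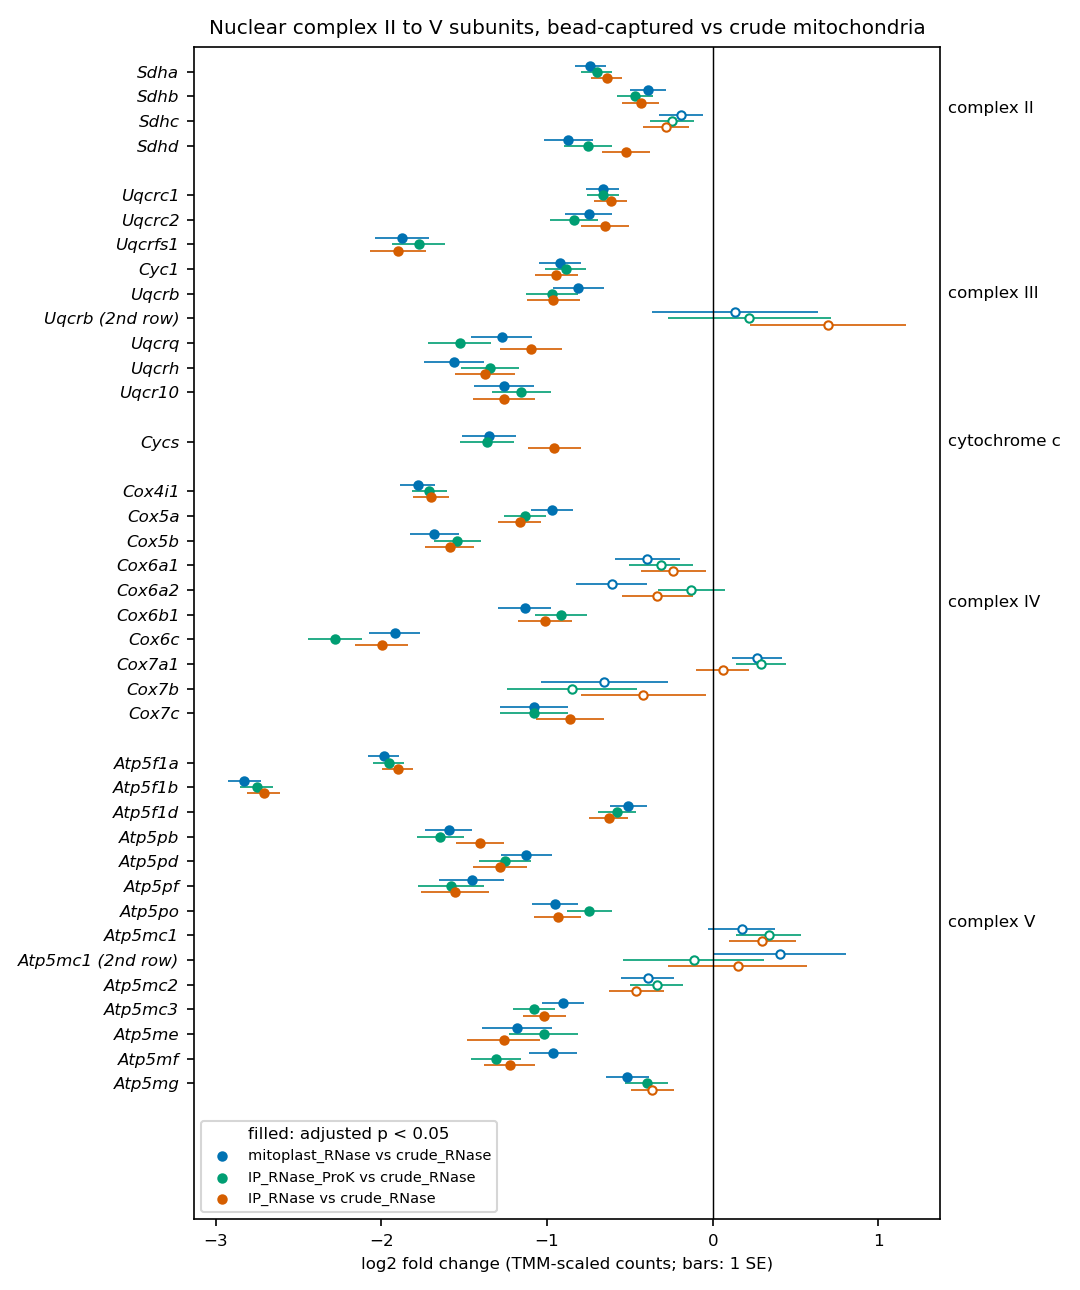
Log2 fold change of each member row (y axis, grouped by complex) in mitoplast_RNase, IP_RNase_ProK and IP_RNase against crude_RNase (x axis, TMM-scaled), with bars of 1 SE. Filled points passed an edgeR adjusted p of 0.05, and all of them lie below 0, down to -2.83 for Atp5f1b, while the open points, such as those of Cox6a1, Cox6a2, Cox7a1 and Atp5mc1, lie between -0.85 and 0.70.

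**Figure D3:**
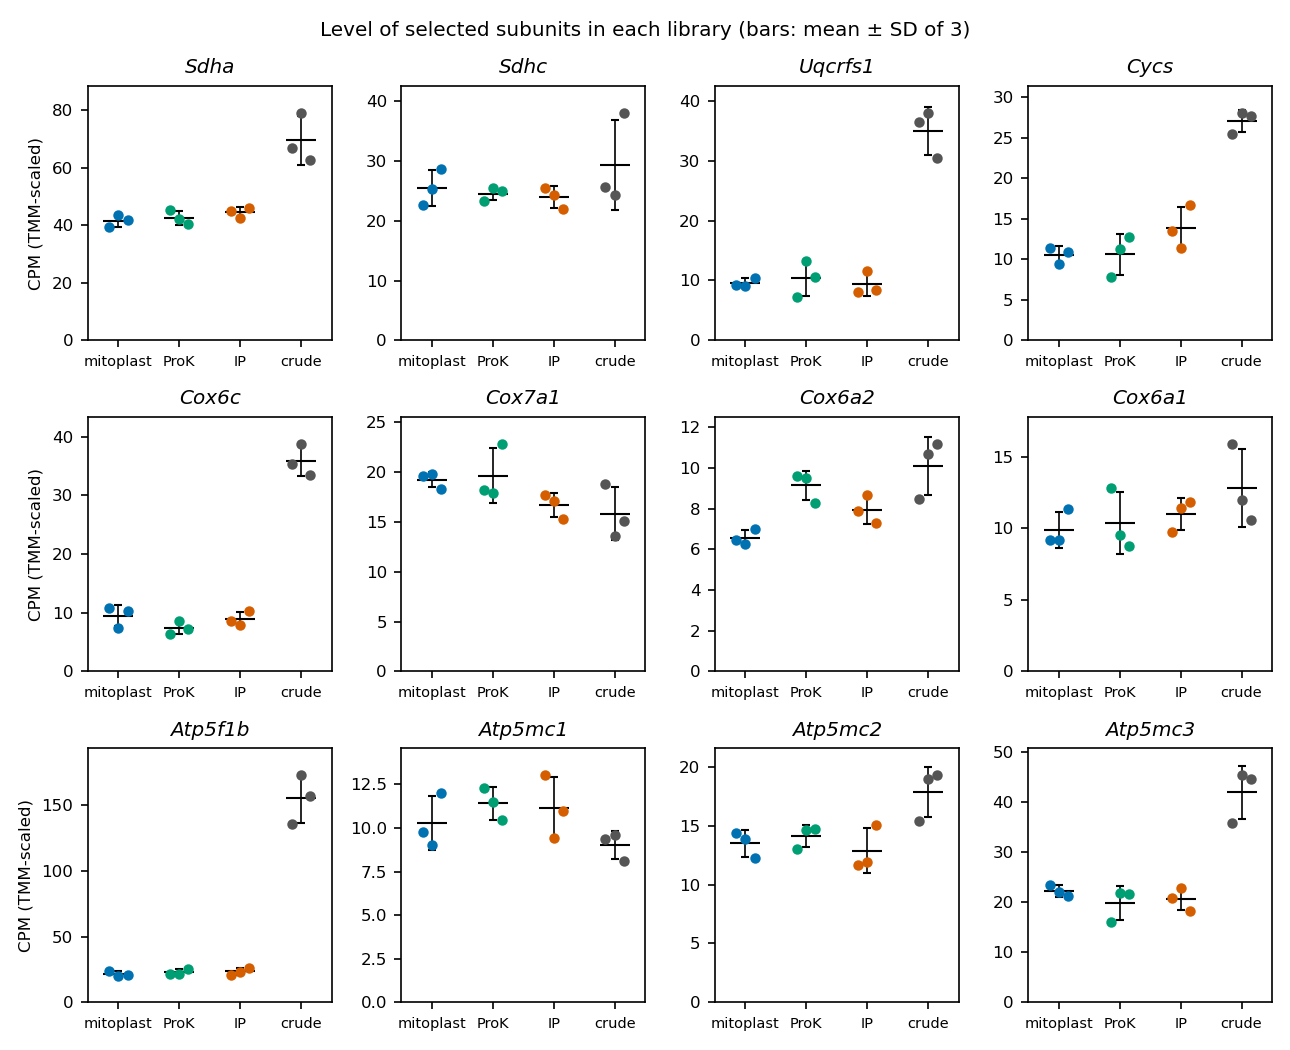
CPM (y axis, TMM-scaled, from 0) of 12 members in each library of the 4 groups (x axis), with mean and SD of 3. For Sdha, Uqcrfs1, Cycs, Cox6c, Atp5f1b and Atp5mc3 the 3 crude_RNase points stand above all others, and for the other genes shown the groups overlap or lie close.

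Between the bead-captured groups no member change passed the threshold. Between mitoplast_RNase and IP_RNase_ProK the members' log2 fold changes ran from -0.48 to 0.52 with a median of -0.028, and edgeR called 0 of 38, as it did of all genes (0% of 26483). Between mitoplast_RNase and IP_RNase they ran from -0.56 to 0.26 with a median of -0.066, and 0 of 38 were called, against 0.155% of all genes. Between IP_RNase_ProK and IP_RNase they ran from -0.48 to 0.24 with a median of -0.028, and 0 of 38 were called, against 0.140% of all genes. At an unadjusted p under 0.05, 2, 2 and 1 members differed in these comparisons by edgeR, as did 741, 2378 and 2348 of all 26483 genes tested. DESeq2 called 0 members in each. DESeq2 set the adjusted p of 36 members to missing in both comparisons with IP_RNase, and 0 members had an unadjusted p under 0.05 with it.

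The intervals differ in width with the reads behind a gene. Atp5f1b was at -0.12 ± 0.130 in mitoplast_RNase against IP_RNase, with an interval of 2 SE from -0.38 to 0.14. Its counts were 97 to 115 in mitoplast_RNase and 90 to 116 in IP_RNase. The median olfactory receptor gene had 38 to 46 and 37 to 44. Whether a further fall as large as that against crude_RNase could show above that level was not tested. The members with an unadjusted p under 0.05, named after their values were seen, were Cycs, Sdhd, Cox6a2 and Atp5mf. Cycs was at -0.39 ± 0.182 in mitoplast_RNase and at -0.40 ± 0.182 in IP_RNase_ProK, both against IP_RNase (edgeR adjusted p = 0.524 and 0.511). Sdhd was at -0.35 ± 0.155 in mitoplast_RNase against IP_RNase (edgeR adjusted p = 0.506). Cox6a2 was at -0.48 ± 0.211 and Atp5mf at 0.35 ± 0.164 in mitoplast_RNase against IP_RNase_ProK (edgeR adjusted p = 1.0 each). These misses do not show that the preparations held equal amounts.

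**Figure D4:**
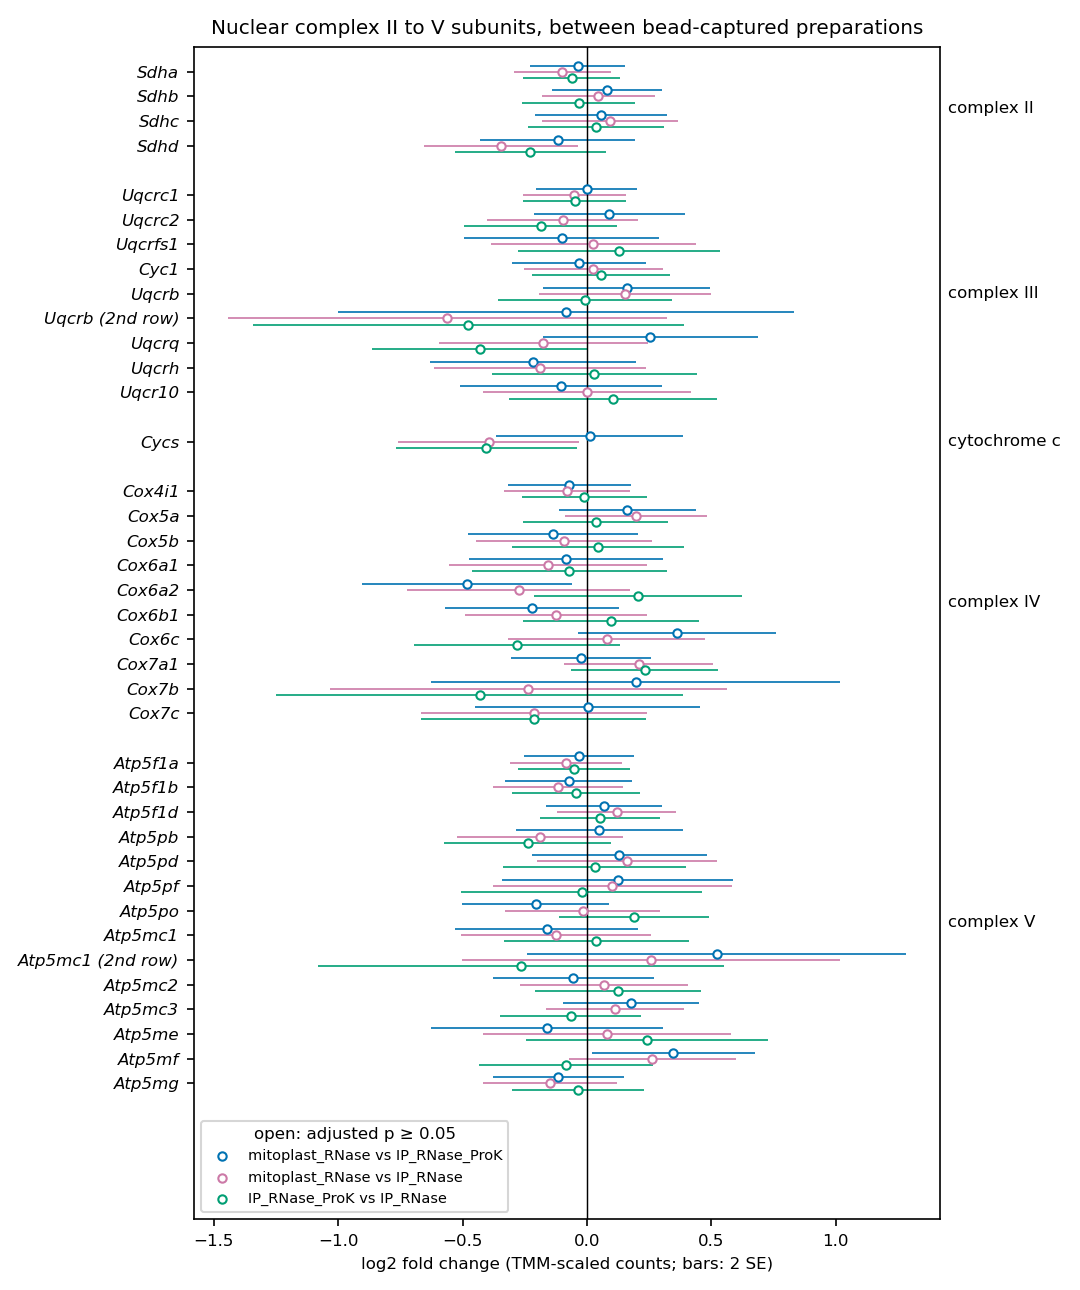
Log2 fold change of each member row (y axis) between the 3 bead-captured groups (x axis, TMM-scaled), with bars of 2 SE. All points are open, since 0 of 38 rows passed in any of the 3 comparisons, and they scatter around 0, between -0.56 and 0.52.

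The mitochondrially encoded subunits of the same complexes also fell, with medians below those of the nuclear members, a difference that was not tested. The 6 mRNAs tested were Mt-cyb of complex III, Mt-co1, Mt-co2 and Mt-co3, the catalytic core of complex IV, and Mt-atp6 and Mt-atp8 of ATP synthase. All 6 fell against crude_RNase, with medians of -4.99 in mitoplast_RNase, -4.96 in IP_RNase_ProK and -3.75 in IP_RNase. Per 100 counts of Mt-cyb, the nuclear complex III rows had 6.81 ± 0.485 counts in mitoplast_RNase, 6.65 ± 0.615 in IP_RNase_ProK and 3.26 ± 1.39 in IP_RNase, against 0.438 ± 0.0860 in crude_RNase (SD, n = 3 each). For complex IV the values were 3.13 ± 0.576, 3.29 ± 0.621 and 1.42 ± 0.621 in mitoplast_RNase, IP_RNase_ProK and IP_RNase, against 0.190 ± 0.0492 in crude_RNase. For ATP synthase they were 26.3 ± 4.01, 27.8 ± 4.23 and 13.6 ± 5.80 in the same bead-captured groups, against 2.52 ± 0.485 in crude_RNase. These ratios do not depend on the scaling between libraries, but their numerators rest on few reads. In the bead-captured libraries the median member row held 47.5 to 72.5 counts, and olfactory receptor genes had medians of 37 to 49. Mt-cyb alone held 7635 to 26535 counts in those libraries. The effect of the olfactory level on the ratios and on the nuclear fold changes was not tested, so better retention of the nuclear mRNAs cannot be read from them. No IP_RNase library reached the lowest mitoplast_RNase or IP_RNase_ProK library in any of the 3 complexes, and IP_RNase 3 was the lowest of its group, at 2.09, 0.836 and 8.45. The summed mitochondrial partners, scaled, were at 5611 to 7414 CPM in mitoplast_RNase, 5423 to 7946 CPM in IP_RNase_ProK and 9775 to 23509 CPM in IP_RNase, against 175390 to 275446 CPM in crude_RNase.

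**Figure D5:**
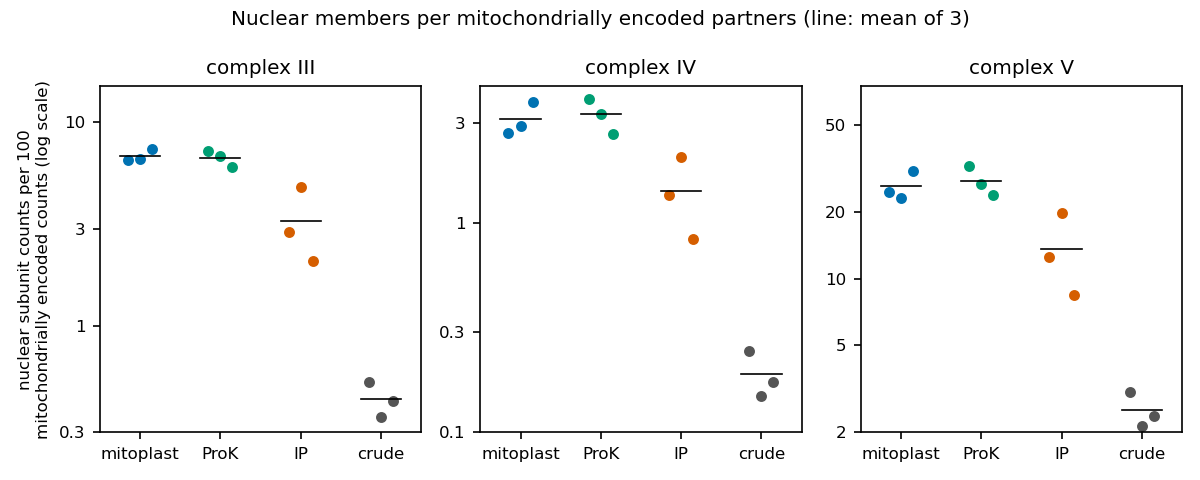
Summed counts of nuclear member rows per 100 counts of the mitochondrially encoded subunits of the same complex (y axis, log scale) in each library of the 4 groups (x axis), with a line at the mean of 3. The crude_RNase libraries are lowest in each complex, IP_RNase intermediate, and mitoplast_RNase and IP_RNase_ProK highest.

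Most other nuclear genes of complexes II to V, mostly assembly factors, were not called. Of 51 listed genes, 34 rows could be tested, and 4 fell in each comparison with crude_RNase, with medians of -0.096 in mitoplast_RNase, 0.012 in IP_RNase_ProK and -0.027 in IP_RNase. Of all genes tested 4.54%, 5.03% and 5.11% were called lower in the same order. In IP_RNase the 4 were Atp5if1, the inhibitor of ATP hydrolysis by ATP synthase, at -1.41 ± 0.223, Atp5mk, a small membrane subunit, at -1.40 ± 0.268, Cox7a2l, which helps join complexes III and IV, at -1.05 ± 0.155, and Lrpprc, which stabilises mitochondrial mRNAs, at -0.31 ± 0.0863 (edgeR adjusted p = 3.47e-06, 0.00013, 6.84e-07 and 0.0159). DESeq2 called 4, 4 and 3 in the same order. Of the complex II and III assembly factors, 0 of 3 and 0 of 5 passed in IP_RNase by edgeR and by DESeq2, with 0 and 1 at an unadjusted p under 0.05 by each tool. Among 35 nuclear complex I rows, 14 fell in mitoplast_RNase, 18 in IP_RNase_ProK and 16 in IP_RNase, with medians of -0.45, -0.42 and -0.45. Whether these lists differ from the members was not tested.

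Genes of muscle fibres and of the fibroblast matrix moved with the members. All 7 muscle fibre markers tested fell in each comparison, and their summed level was 351 to 440 CPM in mitoplast_RNase, 328 to 340 in IP_RNase_ProK and 344 to 417 in IP_RNase, against 4291 to 5306 in crude_RNase. Of 6 fibroblast markers 5 fell in each, with sums of 373 to 377, 352 to 362 and 367 to 392 CPM, against 1555 to 1700 in crude_RNase. The 6 endothelial markers summed to 536 to 541, 501 to 530 and 519 to 541 CPM, against 532 to 564 in crude_RNase, and the 4 smooth muscle markers to 193 to 198, 198 to 204 and 192 to 212 CPM, against 199 to 221 in crude_RNase. Of both lists edgeR and DESeq2 called 0 in any comparison with crude_RNase, with 1 and 1 at an unadjusted p under 0.05 in IP_RNase by each tool. Macrophage markers summed to 272 to 285, 272 to 290 and 280 to 284 CPM, against 298 to 335 in crude_RNase, with 3, 2 and 2 of 6 lower. Of the adipocyte markers 2 of 5 fell in each comparison, with sums of 148 to 149, 140 to 153 and 142 to 144 CPM, against 158 to 218 in crude_RNase. Of the erythroid markers 1 of 2 fell in each, with sums of 53.9 to 59.0, 53.7 to 56.9 and 56.7 to 60.5 CPM, against 67.0 to 83.3 in crude_RNase. No marker row was at 0 in any group. The part of these shifts in the members' values was not tested.

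The members' promoters are given for what the family shares in sequence, which no measurement here bears on. RefSeq promoters (build GRCr8) were found for 31 of the 36 names. The 250 bases before the start were searched on both strands for TGCGCA, the palindromic core of the site of nuclear respiratory factor NRF1, and for CCGGAAG, bound by the ETS factor GABP. Both factors are known regulators of respiratory genes. TGCGCA stood in a promoter of 7 of 31 member genes (22.6%), and in 6.14% of 33465 promoters of that length. CCGGAAG stood in a promoter of 10 of 31 member genes (32.3%), and in 7.27% of those promoters. Members were counted per gene, with a match in any of its promoters, and the background per promoter. The shares are thus not like measures, since a gene with several promoters has more chances of a match. The matches to the 2 motifs overlapped in 0 member promoters. These shares are descriptions, and base composition was not matched. The promoters of Sdha, with a TGCGCA match, and of Cox5b, with a match to each, are printed as examples of promoters with 1 and with both motifs. The capitals mark the matches. Sdha lies at chr1:30764303-30764552 and Cox5b at chr9:46417587-46417836, both on the plus strand.
Sdha: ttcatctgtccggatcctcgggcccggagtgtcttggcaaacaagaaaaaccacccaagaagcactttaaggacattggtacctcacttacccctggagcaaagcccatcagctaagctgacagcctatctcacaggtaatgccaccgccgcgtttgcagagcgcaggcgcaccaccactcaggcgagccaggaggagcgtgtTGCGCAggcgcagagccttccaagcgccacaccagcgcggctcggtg
Cox5b: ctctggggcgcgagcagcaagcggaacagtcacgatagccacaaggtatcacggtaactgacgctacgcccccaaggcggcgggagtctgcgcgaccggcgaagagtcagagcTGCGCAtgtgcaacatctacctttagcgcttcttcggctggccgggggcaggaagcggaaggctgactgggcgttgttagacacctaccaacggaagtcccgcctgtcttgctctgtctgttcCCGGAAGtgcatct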

How the data were processed

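The authors deposited 1 table of raw counts of reads for each Ensembl gene, as the whole-number values show. Per the submitters' processing notes, FastQC 0.74, cutadapt 4.6, STAR 2.7.11a and HTSeq were used with build mRatBN7.2. For annotation release, strand setting and multiply matching reads, nothing is stated (not given in the sources used here). Libraries were grouped by title, since the source labels name immunoprecipitation for the crude samples too. Columns matched the labels' library descriptions, and 0 belonged to other samples.

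Counts were tested with edgeR 4.0.16 in R 4.3.3 (quasi-likelihood, TMM) in 1 model of 12 libraries and 4 groups, after filterByExpr with a minimum count of 10, which kept 86.7% of genes. The common biological coefficient of variation was 0.0644. The SE is the absolute log2 fold change divided by the square root of F, from moderated dispersions. DESeq2 1.42.0 was an alternative, and exact permutation tests used SciPy 1.17.1. The fit was tested on data simulated from the crude_RNase profile with 1 common dispersion, unlike the real libraries. Of 100 genes changed by log2 1 it recovered 94%, and of 100 changed by log2 0.5 it recovered 50%. It also called 4 unchanged genes.

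Members, lists and tests were chosen with earlier results of these data known. Values of every library are given for the lowest and highest fold change of each complex in IP_RNase against crude_RNase, for isoform pairs and for c-ring genes. Of 3 planned isoform pairs, 1 had both genes. The NRF1 core was searched after a longer form of the site had been tried. Same-numbered replicates were not paired, since the titles do not say that a number marks a shared aliquot. Deviations of same-numbered libraries correlated at -0.11 to 0.071, and those of differently numbered ones at -0.10 to 0.13.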

Additional observations from a re-analysis of the deposited data

How the results depend on the processing

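Counts of members called lower against crude_RNase were 26 to 31 under every alternative tried other than library size, and 0 were called higher. Leaving out single libraries gave 28 to 30 in mitoplast_RNase, 28 to 29 in IP_RNase_ProK and 26 to 30 in IP_RNase. With the replicate number as a block they were 29, 28 and 28, without the low-count filter 29, 28 and 28, in fits of only the 6 libraries compared 28, 28 and 28, and with DESeq2 28, 28 and 27. The block ended 1 call, that of Atp5mg in IP_RNase_ProK, and changed no other. DESeq2 ended those of Sdhb in mitoplast_RNase, Atp5mg in IP_RNase_ProK and Sdhd in IP_RNase (adjusted p = 0.0965, 0.166 and 0.0690). Between bead-captured groups 0 members were called under each alternative run. Ratios of Cox7a1 to Cox7a2 and of Cox8b to Cox8a could not be formed and have no values. The difference in the Cox6a2 to Cox6a1 ratio ranged from -0.35 to 0.13 when single libraries were left out (0.011 without crude_RNase 2), and was -0.071, -0.058 and -0.13 with 0.5 or 5 counts added and with IP_RNase alone. Subtracting the background left no Cox6a2 counts in 7 of 9 bead-captured libraries, so that alternative gives no usable ratio.

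Library size scaling moved the counts to 8 lower and 14 higher in mitoplast_RNase, 9 and 15 in IP_RNase_ProK, and 8 and 15 in IP_RNase, and changed the sign of 40 called fold changes. It called 25223, 25222 and 25084 of all 26483 genes tested higher in the same order. By its construction it counts the mitochondrial reads that fill much of the crude_RNase libraries. In mitoplast_RNase the changed values were 0.34 for Sdha, 0.68 for Sdhb, 0.20 for Sdhd, 0.40 for Uqcrc1, 0.33 for Uqcrc2, 0.15 for Cyc1, 0.27 for Uqcrb, 0.10 for Cox5a, 0.55 for Atp5f1d, 0.11 for Atp5po, 0.18 for Atp5mc3, 0.12 for Atp5mf and 0.56 for Atp5mg. In IP_RNase_ProK they were 0.38 for Sdha, 0.61 for Sdhb, 0.33 for Sdhd, 0.41 for Uqcrc1, 0.25 for Uqcrc2, 0.19 for Cyc1, 0.12 for Uqcrb, 0.17 for Cox6b1, 0.0073 for Cox7c, 0.50 for Atp5f1d, 0.33 for Atp5po, 0.012 for Atp5mc3, 0.060 for Atp5me and 0.69 for Atp5mg. In IP_RNase they were 0.39 for Sdha, 0.59 for Sdhb, 0.51 for Sdhd, 0.40 for Uqcrc1, 0.38 for Uqcrc2, 0.076 for Cyc1, 0.069 for Uqcrb, 0.066 for Cycs, 0.011 for Cox6b1, 0.16 for Cox7c, 0.39 for Atp5f1d, 0.081 for Atp5po and 0.019 for Atp5mc3.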
